A study of Mus musculus with 40 samples.

Results

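The effect of XAV939 was measured at day 5 in aggregates of mouse embryonic stem cells, 48 h after the inhibitor had been taken away. All 8 day 5 libraries of the series were used out of 40, chosen by the day and arm in their titles. In 4 of them the aggregates had been given XAV939 between 0 and 72 h, and in the other 4 they had not. Both arms were made from the line CGR8, of strain 129, and grew in serum-free N2B27 medium with Activin-A, Fgf2 and KSR, so exogenous Activin and Fgf2 were common to the 2 arms. The untreated titles carry the words no matrigel and the XAV939 titles do not speak of matrigel, so any difference in matrigel cannot be told apart from the inhibitor. Only 1 line was used, and the labels do not say whether the 4 libraries of an arm were separate cultures. The p-values of the main fit measure the spread of differences between same-numbered libraries, pooled over all days. That spread may be technical. The other 32 libraries are the same arms at days 3, 4, 6 and 7, with 4 in each group.

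XAV939 inhibits the tankyrases, enzymes that mark Axin for destruction. Axin is the scaffold of the complex that degrades β-catenin, so with the inhibitor less β-catenin reaches the TCF and LEF factors that switch on Wnt target genes. In the mouse embryo Wnt signalling is needed for the primitive streak, for the mesoderm and endoderm that leave it, and for the caudal epiblast that builds the trunk and turns on the Hox genes in order. Anterior neural tissue forms where Wnt signalling is low.

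The promoters of 4 called genes are shown, 1 each from the YAP/TEAD, epithelial, Hox and Wnt target lists described below. Each run is the 250 bases before the RefSeq start (GRCm38.p6), 5′ to 3′ on the gene's strand, and none of these bases lies in a GENCODE exon of its gene. Vgll3, at chr16:65814939-65815188 on the plus strand, rose, and its capitals mark the TEAD motif CATTCC. Grhl3, at chr4:135573633-135573882 on the minus strand, fell, and its capitals mark the E2-box CACCTG bound by Snail and Zeb factors. Hoxb8, at chr11:96281655-96281904 on the plus strand, fell, and its capitals mark TTTATNG, a motif of caudal and posterior Hox factors. Sp5, at chr2:70474673-70474922 on the plus strand, fell, and its capitals mark the TCF/LEF motif CTTTGAT.
Vgll3: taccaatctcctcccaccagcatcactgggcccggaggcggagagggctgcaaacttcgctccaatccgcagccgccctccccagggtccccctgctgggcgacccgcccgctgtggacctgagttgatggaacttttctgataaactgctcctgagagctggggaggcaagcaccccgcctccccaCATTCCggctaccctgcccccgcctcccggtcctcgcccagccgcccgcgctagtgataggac
Grhl3: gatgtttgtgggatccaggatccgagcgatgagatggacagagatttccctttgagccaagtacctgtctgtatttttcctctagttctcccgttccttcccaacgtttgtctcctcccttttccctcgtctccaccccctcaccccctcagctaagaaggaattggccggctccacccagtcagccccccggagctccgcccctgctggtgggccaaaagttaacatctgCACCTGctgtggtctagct
Hoxb8: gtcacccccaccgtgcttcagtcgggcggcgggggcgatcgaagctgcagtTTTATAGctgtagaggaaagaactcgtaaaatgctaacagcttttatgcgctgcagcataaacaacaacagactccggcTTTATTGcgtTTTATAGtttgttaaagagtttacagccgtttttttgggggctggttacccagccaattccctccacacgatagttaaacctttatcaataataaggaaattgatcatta
Sp5: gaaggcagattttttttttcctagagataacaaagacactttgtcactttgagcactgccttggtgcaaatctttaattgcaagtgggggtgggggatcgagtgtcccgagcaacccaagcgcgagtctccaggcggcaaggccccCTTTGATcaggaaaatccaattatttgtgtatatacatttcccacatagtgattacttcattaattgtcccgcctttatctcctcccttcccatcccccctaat

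The motifs were searched on both strands. The Vgll3 window held 1 CATTCC, 63 bases before the start, and the Grhl3 window 1 CACCTG, 19 bases before it. The Hoxb8 window held 3 TTTATNG, and the Sp5 window 1 CTTTGAT, 104 bases before the start. Neither AGGTCA, the core of nuclear receptor sites, nor the grainyhead motif AACNNGTT matched in these 4 windows, and no match of one motif overlapped another. Of all 32851 RefSeq promoters, 12.6% held the TEAD motif, 17.2% the E2-box, 9.81% the caudal and Hox motif and 3.21% the TCF motif. The TEAD motif was found in 10 of 13 promoters of the YAP/TEAD list (76.9%), and the E2-box in 10 of 17 promoters of the epithelial list (58.8%). The TEAD motif was held by Vgll3 and Ajuba, which rose, but also by Amotl2, Ccn1, Tead3, Vgll4, Wwtr1 and Yap1, which were not called. The endoderm and gut list held the E2-box in 9 of 16 promoters (56.2%), partly from genes that it shares with the epithelial list. Shares in other lists ranged widely, with 4 of 9 promoters of the naive pluripotency list (44.4%), 6 of 15 of the Wnt ligand list (40%) and 0 of 14 of the collagen list. The E2-box was therefore not particular to the epithelial list. The caudal and Hox motif was found in 1 of 5 promoters of the Hox genes of paralogue groups 5 to 8, that of Hoxb8, and the TCF motif in 1 of 16 promoters of the Wnt target list, that of Sp5. A gene can have several starts in that table, and not every gene of a list was in it. A match describes the letters of a window and is not a bound site.

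The 8 libraries held between 31159603 and 41018704 counts. Levels are in CPM, the count scaled to each library's total after TMM scaling, and the 4 values of an arm are always given in the order of libraries 1 to 4. A XAV939 library and the untreated library of the same number are called a pair, and the fit compares the arms within pairs. Both arms held RNA of the epiblast gene Pou5f1, which encodes Oct4, at 98.0 to 356 CPM with XAV939 and 262 to 560 CPM without. The streak gene T stood at 106 to 266 CPM with XAV939 and 283 to 490 CPM without. Untreated library 1 stood apart on the high side for 12 of the 26 outlying values among the 130 genes named here, most of them Hox and somite genes. Mitochondrial genes took 1.04% to 3.61% of counts in XAV939 libraries and 1.35% to 3.23% in untreated ones. In such bulk RNA fewer cells of a kind and less RNA per cell cannot be told apart.

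Of 16878 genes tested, 495 (2.93%) were higher and 745 (4.41%) lower in XAV939 aggregates at day 5, at a Benjamini-Hochberg adjusted p below 0.05 in edgeR's quasi-likelihood test. They made 1240 (7.35%) in all, and 3509 (20.8%) had an unadjusted p under 0.05. Among the genes called higher were 5 of 16 tested neural progenitor genes and 4 of 14 YAP/TEAD genes. Among those called lower were 16 of the 19 endoderm and gut genes tested, 15 of 20 of epithelial junctions and keratins, 9 of 14 of the primitive streak, 9 of 12 of presomitic mesoderm and 9 of 11 Hox genes of paralogue groups 5 to 8. At least 2-fold changes were seen for 209 of the genes called higher and 421 of those called lower, and changes of at least 4-fold for 36 and 111. All 4 pairs moved the same way for 456 of the 495 and 708 of the 745, and for 4397 of the 15638 genes not called (28.1%). The test compares within pairs and so favours genes whose pairs agree, which makes this agreement no separate support. The arms did not overlap for 309 of the genes called higher and 362 of those called lower. Over all genes tested the XAV939 libraries lay above every untreated library for 581 (3.44%) and below for 678 (4.02%). The median pair log2 ratio of genes called higher was 0.66, 1.22, 0.272 and 1.09 in pairs 1 to 4, and that of genes called lower was -1.17, -1.1, -0.763 and -0.971, so pair 3 showed the smallest differences. The counts of higher and lower genes were 371 and 563 without pair 1, 93 and 324 without pair 2, 617 and 730 without pair 3, and 107 and 435 without pair 4. When the pairing was left out of the model 154 were higher and 241 lower, and 153 and 236 of these were among the 495 and 745. A fit of the 8 day 5 libraries alone called 91 higher and 322 lower with the pairing and 0 of either kind without it, where 1876 genes had an unadjusted p under 0.05, so the numbers rest on pairing and on the spread shared with the other days.

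**Figure D1:**
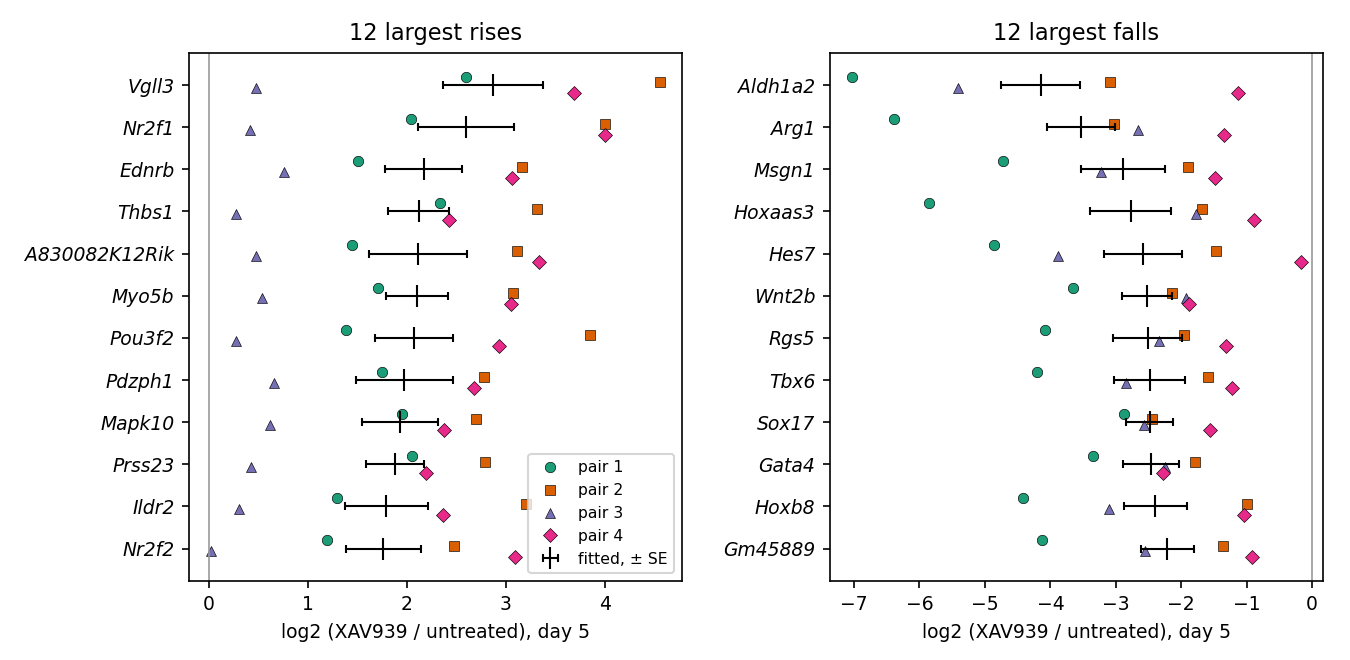
Log2 ratio of XAV939 to untreated CPM in each of the 4 pairs for the 12 largest rises (left) and the 12 largest falls (right), with the fitted log2 fold change ± SE as a black mark; the axes show log2 units and the right panel runs below 0. The genes were chosen to move the same way in all 4 pairs. Pair 3 lies nearest 0 in each of the 12 rises, and pair 1 lies farthest from 0 in each of the 12 falls.

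The 12 largest rises were taken among called genes averaging at least 5 CPM in the higher arm and moving alike in all 4 pairs. They included Vgll3, a cofactor of the TEAD transcription factors, the receptor genes Nr2f1 and Nr2f2 and the neural gene Pou3f2. Vgll3 (chromosome 16, 65815257 to 65866368, mm10) had 32.1, 68.8, 15.3 and 37.5 CPM in XAV939 libraries, against 5.26, 2.87, 11 and 2.84 CPM in untreated ones. Every XAV939 library lay above every untreated one, although XAV939 library 3 and untreated library 3 were close. It rose 7.33-fold (log2 2.87, SE 0.51, adjusted p 0.00186). Nr2f1, an orphan nuclear receptor that patterns the neural plate, had 23.1, 43.2, 13.3 and 35 CPM with XAV939, against 5.56, 2.64, 9.92 and 2.13 CPM without (log2 2.6, SE 0.49, adjusted p 0.00307). A830082K12Rik, a noncoding gene whose exons overlap those of Nr2f1 on the other strand over 123 bases, had 4.01, 7.76, 3.41 and 10.1 CPM, against 1.43, 0.847, 2.43 and 0.947 CPM (log2 2.12, SE 0.50, adjusted p 0.015). Since the strand setting of the counting is not given, the reads of these 2 genes cannot be told apart in the overlap. Nr2f2, the related receptor, had 7.18, 21.8, 4.01 and 22.2 CPM with XAV939, against 3.11, 3.86, 3.93 and 2.55 CPM without (log2 1.76, SE 0.38, adjusted p 0.00675), and its arms nearly touched at library 3. Ednrb, the endothelin receptor of migrating neural crest, had 7.49, 11.7, 4.21 and 19.5 CPM, against 2.6, 1.25, 2.46 and 2.29 CPM (log2 2.17, SE 0.39, adjusted p 0.00212). Without pair 3 the log2 fold change was 3.63 for Vgll3 and 3.35 for Nr2f1, and without pair 2 that of Vgll3 was 2.27. Of 10 tested Nr2f, Meis and related patterning genes Nr2f1 and Nr2f2 rose and Meis3, a homeobox cofactor, fell (log2 -0.39, SE 0.11, adjusted p 0.0357), with a median of 0.27. Over all genes tested 2.93% were higher and 4.41% lower. The calls of Nr2f2 and A830082K12Rik ended without pair 2 (adjusted p 0.0848 to 0.129) and without pair 4 (0.076 to 0.117).

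The other large rises were Myo5b, Pdzph1, Mapk10, Prss23 and Ildr2. Myo5b, a myosin that carries recycling endosomes, had 55, 56.1, 30.1 and 61.8 CPM with XAV939, against 16.8, 6.61, 20.7 and 7.37 CPM without, and the arms did not overlap (log2 2.1, SE 0.31, adjusted p 0.000674). Mapk10, a Jun kinase of the nervous system, averaged 12.5 ± 4.39 CPM with XAV939 and 3.28 ± 1.27 CPM without (SD, n = 4 each; log2 1.94, SE 0.38, adjusted p 0.00404). Prss23, a secreted serine protease, had 19.1, 25.6, 13.4 and 29 CPM, against 4.54, 3.65, 9.95 and 6.26 CPM (log2 1.88, SE 0.29, adjusted p 0.000812). Ildr2, a membrane protein with an immunoglobulin domain, averaged 94 ± 31.1 CPM with XAV939 and 28.4 ± 13.2 CPM without, and Pdzph1, a gene with a PDZ domain, 11 ± 3.36 CPM and 3.03 ± 1.74 CPM in the same order. The fitted log2 fold changes of Ildr2 and Pdzph1 were 1.79 (SE 0.42, adjusted p 0.0123) and 1.98 (SE 0.49, adjusted p 0.0168). Both calls ended without pair 2 (adjusted p 0.129 to 0.133) and without pair 4 (0.0977 to 0.12), and that of Pdzph1 also without the pairing (0.052).

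Of 14 tested YAP/TEAD genes (15 listed), 4 rose and 1 fell, with a median log2 fold change of 0.06, against 0.01 over all genes tested. Besides Vgll3, the risers were the matrix protein gene Thbs1, the matricellular gene Ccn2 and the junction and LIM-domain gene Ajuba. Thbs1 (chromosome 2, 118111876 to 118127133) had 56.8, 84.3, 28 and 66.7 CPM with XAV939, against 11.2, 8.38, 23.1 and 12.4 CPM without, and the arms did not overlap. It rose 4.35-fold (log2 2.12, SE 0.31, adjusted p 0.000583) and kept its call without each pair in turn. Ccn2 had 8.53, 11.2, 5.53 and 8.72 CPM, against 2.09, 4.66, 3.34 and 5.84 CPM, overlapping at XAV939 library 3 and untreated library 4 (log2 1.13, SE 0.22, adjusted p 0.00401). Ajuba averaged 84.2 ± 12.2 CPM with XAV939 and 60.02 ± 5.54 CPM without (log2 0.48, SE 0.13, adjusted p 0.0297). Tead4, a TEAD factor of trophectoderm, averaged 2.01 ± 0.649 CPM with XAV939 and 3.78 ± 1.47 CPM without and fell (log2 -0.90, SE 0.22, adjusted p 0.0158). The other 9 tested members were not called. The call of Ajuba ended without pair 1 (adjusted p 0.149), pair 2 (0.212) and pair 4 (0.0543), and that of Tead4 without the same pairs (0.0671, 0.12 and 0.0624) and without the pairing (0.157).

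Of 16 tested neural progenitor genes 5 rose and none fell, with a median log2 fold change of 0.81. These were the POU factors Pou3f2, Pou3f3 and Pou3f4 and the Sox factors Sox21 and Sox1. Pou3f2 had 18, 27.9, 14.2 and 34.8 CPM with XAV939, against 6.87, 1.88, 11.7 and 4.5 CPM without. The arms did not overlap, and untreated library 3 was nearest to the XAV939 values (log2 2.07, SE 0.39, adjusted p 0.00315). Sox1, the SoxB factor that marks the neural plate, had 99.6, 119, 68.9 and 101 CPM, against 51.7, 17.7, 58.5 and 25.3 CPM (log2 1.47, SE 0.37, adjusted p 0.0184). Sox21, another SoxB factor, had 48.1, 76.2, 34.1 and 76.2 CPM with XAV939, against 19.98, 12.8, 27.6 and 12.9 CPM without (log2 1.68, SE 0.36, adjusted p 0.00676). Pou3f3 averaged 8.24 ± 3.16 CPM with XAV939 and 2.47 ± 1.13 CPM without (log2 1.75, SE 0.34, adjusted p 0.00368), and Pou3f4 1.44 ± 0.396 CPM and 0.581 ± 0.217 CPM in the same order (log2 1.32, SE 0.34, adjusted p 0.021). Sox2, kept by both epiblast and neural cells, had 35.1, 60.8, 27.5 and 67.2 CPM with XAV939, against 30.2, 28.3, 28.3 and 28.5 CPM without, and Pax6 had 1.8, 5.39, 1.0 and 6.78 CPM, against 1.49, 0.847, 1.1 and 1.76 CPM. Neither passed the test (adjusted p 0.278 and 0.0947), and in both the XAV939 libraries 2 and 4 were high while libraries 1 and 3 lay near the untreated ones. Pax6 passed without pair 3 (adjusted p 0.0444). The calls of Sox1, Sox21 and Pou3f4 ended without pair 2 (adjusted p 0.0806 to 0.187), without pair 4 (0.0701 to 0.174) and without the pairing (0.0562 to 0.217), that of Pou3f4 also without pair 1 (0.0579) and that of Sox1 with no filter on low counts (0.0638). Without pair 3 the log2 fold change of Pou3f2 was 2.71. The list's count was 2 without pair 2, 2 without pair 4, 2 without the pairing and 8 without pair 3.

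Regional genes of the neural tube rose in part, where 2.93% of all genes tested were higher. Of 15 tested neural tube domain genes 3 rose and none fell (median 0.9), namely the dorsal factors Pax3 and Pax7 and Dbx1 of the intermediate neural tube. Pax3 had 14.3, 16.7, 8.22 and 15.2 CPM with XAV939, against 6.66, 2.33, 7.52 and 3.34 CPM without (log2 1.54, SE 0.42, adjusted p 0.0289), and Pax7 averaged 14 ± 4.22 CPM and 5.94 ± 3.15 CPM in the same order (log2 1.32, SE 0.33, adjusted p 0.0188). Dbx1 stood at only 1.15 ± 0.295 CPM with XAV939 and 0.361 ± 0.186 CPM without (log2 1.68, SE 0.48, adjusted p 0.0447). Ednrb, Pax3 and Pax7 were also the 3 members of 13 that rose in the neural crest and border list (median 0.04). Among 15 midbrain and hindbrain genes 2 rose and none fell (median 0.80). Irx2, an Iroquois factor, had 35.3, 57.2, 22.9 and 54.8 CPM, against 15, 8.66, 21.7 and 10.8 CPM (log2 1.6, SE 0.39, adjusted p 0.015). Egr2, which marks hindbrain rhombomeres 3 and 5, had 15.4, 21.5, 7.93 and 14.4 CPM with XAV939, against 4.63, 4.28, 8.34 and 4.26 CPM without, and overlapped at library 3 (log2 1.45, SE 0.38, adjusted p 0.0214). The calls of Pax3, Pax7, Irx2 and Egr2 ended without pair 2 (adjusted p 0.161 to 0.254) and without pair 4 (0.129 to 0.191), and those of Pax3 and Egr2 without pair 1 (0.0521 to 0.0847). The calls of Pax3, Pax7 and Egr2 also ended without the pairing (0.123 to 0.516), that of Pax3 with DESeq2 (0.0668) and no low-count filter (0.0881), and that of Irx2 with no low-count filter (0.0503).

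Forebrain genes went both ways. Of 13 tested members 2 rose and 1 fell (median 0.15), where 2.93% of all genes tested were higher and 4.41% lower. Among the risers was Lmo3, a LIM-only gene, which averaged 1.51 ± 0.676 CPM with XAV939 and 0.499 ± 0.164 CPM without (log2 1.56, SE 0.34, adjusted p 0.00896). Emx2, a cortical homeobox factor, had 1.6, 4.06, 1.95 and 1.74 CPM, against 5.02, 7.74, 5.2 and 4.55 CPM, and fell (log2 -1.33, SE 0.22, adjusted p 0.00161). The call of Emx2 ended without the pairing (0.481). Otx2, a factor of epiblast and anterior neural plate, had 25, 20.1, 29.4 and 24.8 CPM with XAV939 and 50.3, 89.6, 39.3 and 30.1 CPM without. All 4 XAV939 values lay below the untreated ones, but the gene did not pass the test (log2 -0.96, adjusted p 0.167). Six3, the eye field factor, stood under 2 CPM in every library and did not pass either (log2 -1.22, adjusted p 0.153). Among 14 genes of neurons 1 rose, Elavl4, an RNA-binding protein of neurons (log2 0.66, SE 0.18, adjusted p 0.0312), and 1 fell, Isl1, of motor neurons and heart precursors (log2 -1.65, SE 0.40, adjusted p 0.0144). Elavl4 lost its call without pairs 1, 2 and 4 (adjusted p 0.0687, 0.12 and 0.318) and without the pairing (0.519), and Isl1 without pair 1 (0.0958) and pair 3 (0.0573).

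**Figure D2:**
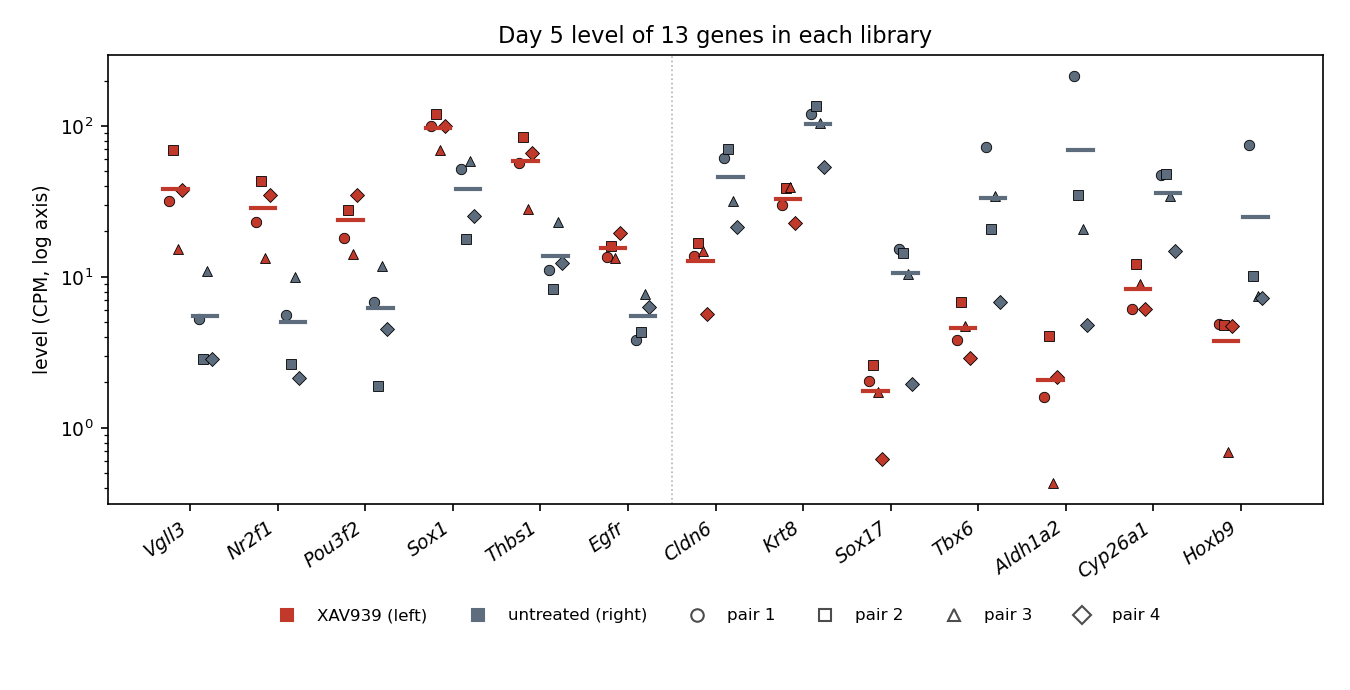
Level of 13 genes in each day 5 library, in CPM on a log axis; XAV939 is left of untreated for each gene, symbols mark the pair and bars the arm mean. The 6 genes left of the dotted line rose and the 7 right of it fell. Untreated library 1 reached 216 CPM for Aldh1a2 and 75.0 CPM for Hoxb9, far above the other untreated libraries.

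The 12 largest falls were taken among called genes averaging at least 5 CPM in the higher arm and moving alike in all 4 pairs. They included Aldh1a2, Msgn1, Tbx6, Hes7, Hoxb8 and Sox17, genes of trunk mesoderm and endoderm. Of 12 tested presomitic mesoderm and segmentation genes 9 fell and none rose, with a median log2 fold change of -1.81. Tbx6 (chromosome 7, 126781483 to 126785560), the T-box factor that commits cells to paraxial mesoderm, had 3.84, 6.85, 4.72 and 2.9 CPM with XAV939, against 72.1, 20.8, 34.2 and 6.84 CPM without. XAV939 library 2 just reached untreated library 4, the lowest of its arm, and Tbx6 fell 5.6-fold (log2 -2.48, SE 0.55, adjusted p 0.00823). Msgn1, a bHLH factor of presomitic mesoderm, had 1.52, 3.2, 1.46 and 1.05 CPM, against 41.5, 12.1, 14.1 and 3.05 CPM (log2 -2.89, SE 0.64, adjusted p 0.0186). Hes7, an oscillator of the segmentation clock, had 0.646, 2.29, 0.687 and 1.81 CPM with XAV939, against 20.3, 6.47, 10.9 and 2.05 CPM without (log2 -2.59, SE 0.60, adjusted p 0.0109). For all 3 genes untreated library 4 was the lowest untreated value and untreated library 1 the highest. Dll3, a Notch ligand of the segmenting mesoderm, had 12.1, 13.2, 11.5 and 4.28 CPM, against 64.6, 34.7, 39.3 and 14.3 CPM, with no overlap (log2 -1.83, SE 0.31, adjusted p 0.00157). Dusp4, an ERK phosphatase, averaged 51.2 ± 6.83 CPM with XAV939 and 87.5 ± 12.7 CPM without (log2 -0.77, SE 0.099, adjusted p 0.000238). Snai1, a repressor of epithelial genes, averaged 2.07 ± 1.04 CPM and 8.57 ± 6.55 CPM in the same order (log2 -1.88, SE 0.30, adjusted p 0.00109), and Cited1, a transcriptional cofactor, 2.02 ± 0.294 CPM and 10.02 ± 11.4 CPM (log2 -1.74, SE 0.33, adjusted p 0.00272). Without pair 1, whose untreated library was highest, 5 of the 12 fell, and the calls of Tbx6, Msgn1 and Hes7 ended (adjusted p 0.0541 to 0.0677), with log2 fold changes of -2.26 for Msgn1 and -1.82 for Hes7. That of Msgn1 ended without pair 2 (0.0529), without the pairing (0.0973), with DESeq2 (0.539) and with no low-count filter (0.0936), those of Msgn1 and Hes7 without pair 3 (0.0582 to 0.0595), and the log2 fold change of Hes7 was -3.4 without pair 4.

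Genes of later somites fell less evenly: of 15 tested 4 fell and 1 rose (median -0.38), the riser being Pax3. Aldh1a2 (chromosome 9, 71215789 to 71296243) makes retinoic acid in the trunk mesoderm. It had 1.6, 4.09, 0.429 and 2.17 CPM with XAV939, against 216, 35, 20.7 and 4.82 CPM without. The arms did not overlap, but untreated library 1 held more than the other 3 untreated libraries together. Aldh1a2 fell 17.7-fold (log2 -4.15, SE 0.60, adjusted p 0.000583). Foxc1 and Foxc2 are forkhead factors of the paraxial mesoderm. Foxc1 had 0.954, 3.09, 1.0 and 1.15 CPM, against 20.9, 6.45, 6.73 and 1.61 CPM (log2 -2.2, SE 0.45, adjusted p 0.00544), and Foxc2 had 0.112, 0.166, 0.115 and 0.132 CPM, against 6.96, 1.08, 0.876 and 0.132 CPM (log2 -3.73, SE 0.58, adjusted p 0.00167). Meox1, a homeobox factor of the somite, had 0.253, 0.967, 0.20 and 0.954 CPM with XAV939, against 18.8, 2.19, 1.41 and 0.947 CPM without (log2 -2.6, SE 0.62, adjusted p 0.0131). In the last 3 the lowest untreated library overlapped the XAV939 values. Without pair 1 the log2 fold changes were -3.08 for Aldh1a2, -1.45 for Foxc1, -2.29 for Foxc2 and -1.14 for Meox1, whose call ended (adjusted p 0.129). Without pair 4 those of Aldh1a2 and Meox1 were -5.1 and -3.44, and without pair 2 -4.76 and -3.29.

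Several large falls belonged to none of these groups. Arg1, the arginase of the urea cycle, had 0.168, 0.635, 0.315 and 0.79 CPM with XAV939, against 18.8, 5.58, 2.29 and 2.11 CPM without, with no overlap (log2 -3.53, SE 0.53, adjusted p 0.00119). Rgs5, a regulator of G-protein signals found in pericytes, had 0.477, 1.22, 0.916 and 0.592 CPM, against 8.93, 4.9, 4.86 and 1.55 CPM (log2 -2.51, SE 0.53, adjusted p 0.00627). Gm45889, a gene known only by its model number, had 23, 36.5, 19.6 and 24.4 CPM with XAV939, against 401, 94.4, 115 and 46.1 CPM without (log2 -2.21, SE 0.40, adjusted p 0.00234). Untreated library 1 was the highest for all 3 genes. Without pair 1 the log2 fold change was -2.48 for Arg1 and -1.61 for Gm45889, and without pair 4 that of Arg1 was -4.27.

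Of 14 tested primitive streak genes 9 fell and none rose, with a median of -1.44. Mesp1, a factor of the first mesoderm, had 0.758, 0.635, 0.945 and 0.0658 CPM with XAV939, against 6.63, 1.72, 3.45 and 0.368 CPM without (log2 -2.19, SE 0.38, adjusted p 0.0023). Cer1, a secreted inhibitor of Nodal, BMP and Wnt from anterior mesendoderm, had 6.68, 15.4, 7.44 and 4.94 CPM, against 49.6, 66, 33.9 and 12.6 CPM, and XAV939 library 2 overlapped untreated library 4 (log2 -2.15, SE 0.42, adjusted p 0.00379). Lefty2, a Nodal inhibitor and target, had 17, 16.1, 9.1 and 9.77 CPM with XAV939, against 48.1, 39.5, 21.9 and 23.6 CPM without, with no overlap (log2 -1.33, SE 0.27, adjusted p 0.00442). Eomes, a T-box factor of streak and endoderm, averaged 52.7 ± 32 CPM with XAV939 and 112 ± 39.2 CPM without (log2 -1.29, SE 0.37, adjusted p 0.0366). T, or brachyury, had 179, 231, 266 and 106 CPM, against 283, 490.4, 435 and 372 CPM. Its arms did not overlap, yet it did not pass the test (log2 -1.06, SE 0.56, adjusted p 0.292). Mixl1, a homeobox factor of the streak, was alike: it had 29.3, 30.9, 48.6 and 14.4 CPM with XAV939 and 50.9, 85.6, 78.1 and 66.9 CPM without (log2 -1.28, adjusted p 0.162). The calls of Mesp1, Cer1, Lefty2 and Eomes ended without the pairing (adjusted p 0.154 to 0.288), when 1 of the 14 genes fell. Without any 1 pair 5 or 6 of them fell. That of Cer1 also ended with DESeq2 (0.0863), and that of Eomes without pairs 2 and 4 (0.283 and 0.268) and with no low-count filter (0.104).

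Hox genes give position along the body axis, and members of all 3 sets of paralogue groups fell. Of 12 tested genes of paralogue groups 1 to 4, expressed from the hindbrain backwards, 8 fell (median -1.52). In groups 5 to 8, of the trunk, 9 of 11 fell (median -2.9), and in groups 9 to 13, of the posterior body, 1 of 5 fell, with the other 11 listed members not tested because of low counts. None rose in any of the 3 sets. Hoxb8 (chromosome 11, 96281905 to 96285315), whose promoter is shown above, had 1.4, 2.35, 0.344 and 1.45 CPM with XAV939, against 31.2, 4.73, 3.36 and 3.05 CPM without. Hoxb9, of the lower trunk, had 4.91, 4.78, 0.687 and 4.74 CPM, against 75, 10.2, 7.49 and 7.29 CPM. In both genes the arms did not overlap, untreated library 1 stood far above the other untreated libraries and XAV939 library 3 was the lowest of its arm. Hoxb8 fell 5.27-fold (log2 -2.4, SE 0.48, adjusted p 0.00602) and Hoxb9 4.54-fold (log2 -2.18, SE 0.46, adjusted p 0.0061). Hoxd4 had 0.253, 0.469, 0.0286 and 0.329 CPM with XAV939, against 5.94, 1.79, 1.16 and 0.921 CPM without (log2 -3.01, SE 0.59, adjusted p 0.00762), and its exons overlap those of Hoxd3 on the same strand. Hoxb4 had 0.533, 0.221, 0.115 and 0.559 CPM, against 6.63, 1.13, 0.933 and 0.842 CPM (log2 -2.46, SE 0.50, adjusted p 0.00935). Hoxd1, a group 1 gene, averaged 0.768 ± 0.223 CPM with XAV939 and 2.0 ± 1.3 CPM without (log2 -1.25, SE 0.29, adjusted p 0.0132).

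Most other Hox genes that fell stood near the limit of detection with XAV939. Hoxb6 had 0.0842, 0.0828, 0 and 0.0329 CPM with XAV939, against 2.36, 0.235, 0.17 and 0.237 CPM without (adjusted p 0.00325). Hoxa7 had 0.0842, 0.0276, 0 and 0.0658 CPM, against 2.42, 0.518, 0.113 and 0.105 CPM (adjusted p 0.00638), and Hoxc4 had 0.14, 0.11, 0.0859 and 0.362 CPM, against 6.33, 0.847, 0.452 and 0.553 CPM (log2 -3.11, SE 0.68, adjusted p 0.0103). Only untreated library 1 held more than 1 CPM of these 3 genes. Hoxaas3, an antisense RNA whose exons overlap those of Hoxa3 and Hoxa7 so that their reads cannot be told apart, had 0.393, 0.911, 0.258 and 0.987 CPM with XAV939, against 25.9, 3.06, 1.02 and 1.87 CPM without (log2 -2.77, SE 0.61, adjusted p 0.0129). Hoxb1, an anterior gene of the hindbrain and early mesoderm, had 27.3, 34.5, 13.4 and 36.3 CPM, against 98.4, 43.2, 35.8 and 54.9 CPM, and did not pass the test (log2 -1.05, adjusted p 0.0628). Without pair 1 none of the 12 genes of groups 1 to 4 and 1 of the 11 of groups 5 to 8 fell, with medians of -0.992 and -1.61. The log2 fold change was then -1.57 for Hoxb8, which kept its call, -1.48 for Hoxaas3, which kept it too, -1.47 for Hoxb9, -2.27 for Hoxd4, -1.78 for Hoxb4 and -1.78 for Hoxc4, and the calls of the last 4 and of Hoxb6 and Hoxa7 ended (adjusted p 0.0506 to 0.142). Without pair 4 it was -2.78 for Hoxb9, -3.16 for Hoxb4, -4.19 for Hoxc4 and -3.52 for Hoxaas3, without pair 2 it was -3.03 for Hoxb8, and the call of Hoxaas3 ended with no low-count filter (0.0588).

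The Cdx factors, which turn on Hox genes in the caudal epiblast, fell with them. Of 14 tested genes of that list 6 fell and none rose (median -0.95). Cdx2 had 29, 21.7, 16.1 and 19.5 CPM with XAV939, against 119, 37.7, 42.5 and 47.3 CPM without, and Cdx4 had 1.38, 1.02, 0.802 and 1.61 CPM, against 12.8, 2.5, 2.29 and 4.61 CPM. Neither gene's arms overlapped (Cdx2: log2 -1.38, SE 0.35, adjusted p 0.0213; Cdx4: log2 -1.92, SE 0.39, adjusted p 0.00493). Grsf1, an RNA-binding protein placed downstream of Wnt in the mouse embryo, averaged 205 ± 21.8 CPM with XAV939 and 318 ± 125 CPM without (log2 -0.56, SE 0.15, adjusted p 0.0213). The call of Cdx2 ended without each pair (adjusted p 0.101, 0.0522, 0.0547 and 0.0777 for pairs 1 to 4), without the pairing (0.31), with DESeq2 (0.174) and with no low-count filter (0.0716), and that of Cdx4 without the pairing (0.183).

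Retinoic acid genes went both ways, where 2.93% of all genes tested were higher and 4.41% lower. Of 15 tested 4 fell and 2 rose (median -0.17). Besides Aldh1a2, the falls were Cyp26a1, the enzyme that breaks retinoic acid down in the caudal embryo, and the receptors Rarg and Rara. Cyp26a1 had 6.15, 12.2, 8.93 and 6.12 CPM with XAV939, against 47.5, 48.4, 34.1 and 14.9 CPM without. The arms did not overlap, and the fall was 4.12-fold (log2 -2.04, SE 0.21, adjusted p 2.49e-05). Rarg averaged 32.2 ± 14.6 CPM with XAV939 and 50.4 ± 9.53 CPM without (log2 -0.75, SE 0.16, adjusted p 0.00642), and Rara 12.8 ± 4.8 CPM and 17.6 ± 7.59 CPM in the same order (log2 -0.44, SE 0.13, adjusted p 0.0388). The risers were Cyp26b1, the hindbrain counterpart of Cyp26a1, at 2.05, 8.67, 0.716 and 5.46 CPM with XAV939 and 1.76, 1.27, 0.792 and 0.632 CPM without (log2 1.64, SE 0.40, adjusted p 0.0145), and Aldh1a1, another enzyme of synthesis, at 1.02 ± 0.264 CPM and 0.493 ± 0.206 CPM in the same order (log2 1.08, SE 0.30, adjusted p 0.034). For Cyp26b1 XAV939 libraries 2 and 4 stood well above the untreated range, library 1 just above it and library 3 within it. Cyp26a1 kept its call without each pair and without the pairing. The calls of the other 4 just described ended without pair 2 (adjusted p 0.0631 to 0.228) and pair 4 (0.0693 to 0.171). Those of Rara and Aldh1a1 also ended without pair 1 (0.106 to 0.123), that of Rara without pair 3 (0.0979), those of Rarg, Rara and Aldh1a1 without the pairing (0.154 to 0.489), and that of Aldh1a1 with DESeq2 (0.0606) and no low-count filter (0.0508).

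Of the 44 lists, that of definitive endoderm and gut had the largest share called lower. Of 19 tested members 16 fell and none rose, with a median log2 fold change of -1.55. Sox17, a factor needed for endoderm, had 2.05, 2.6, 1.72 and 0.625 CPM with XAV939, against 15.3, 14.4, 10.5 and 1.95 CPM without, and XAV939 libraries 1 and 2 overlapped only untreated library 4 (log2 -2.48, SE 0.36, adjusted p 0.000583). Hhex, a homeobox factor of anterior endoderm, had 3.76, 6.68, 4.64 and 1.74 CPM with XAV939, against 12.4, 20.1, 12.1 and 4.97 CPM without (log2 -1.55, SE 0.17, adjusted p 5.48e-05). Cldn6 (chromosome 17, 23679249 to 23682446), a tight-junction claudin of early epithelia, had 13.7, 16.8, 14.9 and 5.66 CPM, against 61.2, 70.3, 31.8 and 21.4 CPM. Its arms did not overlap, and it fell 3.51-fold (log2 -1.81, SE 0.15, adjusted p 2.74e-06). Krt8, a keratin of simple epithelia, had 30.1, 38.7, 39.1 and 22.6 CPM with XAV939, against 119, 136, 105 and 53.4 CPM without, again with no overlap (log2 -1.62, SE 0.20, adjusted p 0.000198). Summed over the list, the members held 281 to 567 CPM in XAV939 libraries and 739 to 1465 CPM in untreated ones. That sum includes genes of epithelia in general and is not a level of endoderm alone. Untreated means were 103 CPM for Krt8 and 46.2 CPM for Cldn6, but 10.5 CPM for Sox17 and 12.4 CPM for Hhex. The count was 11 to 16 when any 1 pair was left out and 10 without the pairing.

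Epithelial genes overlap this list and fell alike. Of 20 tested genes of junctions, keratins and their regulators 15 fell and none rose (median -1.16). Cdh1, which encodes E-cadherin, had 207, 133, 217 and 72.3 CPM with XAV939, against 297, 419, 278 and 282 CPM without. The arms did not overlap and XAV939 library 4 was the lowest (log2 -1.12, SE 0.19, adjusted p 0.00151). Dsp, the desmosomal protein desmoplakin, had 66.7, 61.4, 62.2 and 32.5 CPM, against 155, 144, 120.4 and 84.7 CPM (log2 -1.19, SE 0.16, adjusted p 0.000382). Esrp2, a splicing regulator of epithelial transcripts, averaged 0.331 ± 0.199 CPM with XAV939 and 1.53 ± 0.595 CPM without (log2 -2.22, SE 0.33, adjusted p 0.000628). Cdh2, which encodes N-cadherin, had 227, 263, 165 and 215 CPM with XAV939 and 301, 215, 228 and 169 CPM without and did not pass the test (log2 -0.06, adjusted p 0.835). Of 12 genes of the mesenchymal transition list 2 fell, Snai1 and the fibronectin gene Fn1, and none rose (median -0.01). Over all genes tested 4.41% were lower. Fn1 had 567, 496, 409 and 282 CPM with XAV939, against 1667, 824, 946 and 419.9 CPM without (log2 -1.02, SE 0.22, adjusted p 0.0074), and its call ended without pair 1 (adjusted p 0.0526). The epithelial count was 7 without pair 2, 8 without pair 4, 14 without pair 1, 17 without pair 3 and 9 without the pairing.

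Surface ectoderm genes also fell, in 4 of 11 cases (median -1.12), and none rose. Grhl3 (chromosome 4, 135541888 to 135573630), a grainyhead factor of the epidermis and of neural tube closure whose promoter is shown above, had 2.83, 3.23, 2.83 and 2.14 CPM with XAV939, against 22.7, 11.5, 10.9 and 5.11 CPM without, with no overlap (log2 -2.02, SE 0.39, adjusted p 0.00362). Perp, a desmosomal gene and p53 target, averaged 16.7 ± 2.58 CPM with XAV939 and 27.8 ± 6.53 CPM without (log2 -0.72, SE 0.16, adjusted p 0.00973). Krt5, a basal keratin, stood at only 0.412 ± 0.117 CPM and 1.13 ± 0.417 CPM in the same order (log2 -1.41, SE 0.38, adjusted p 0.0276). The other was Wnt6, described with the Wnt ligands.

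**Figure D3:**
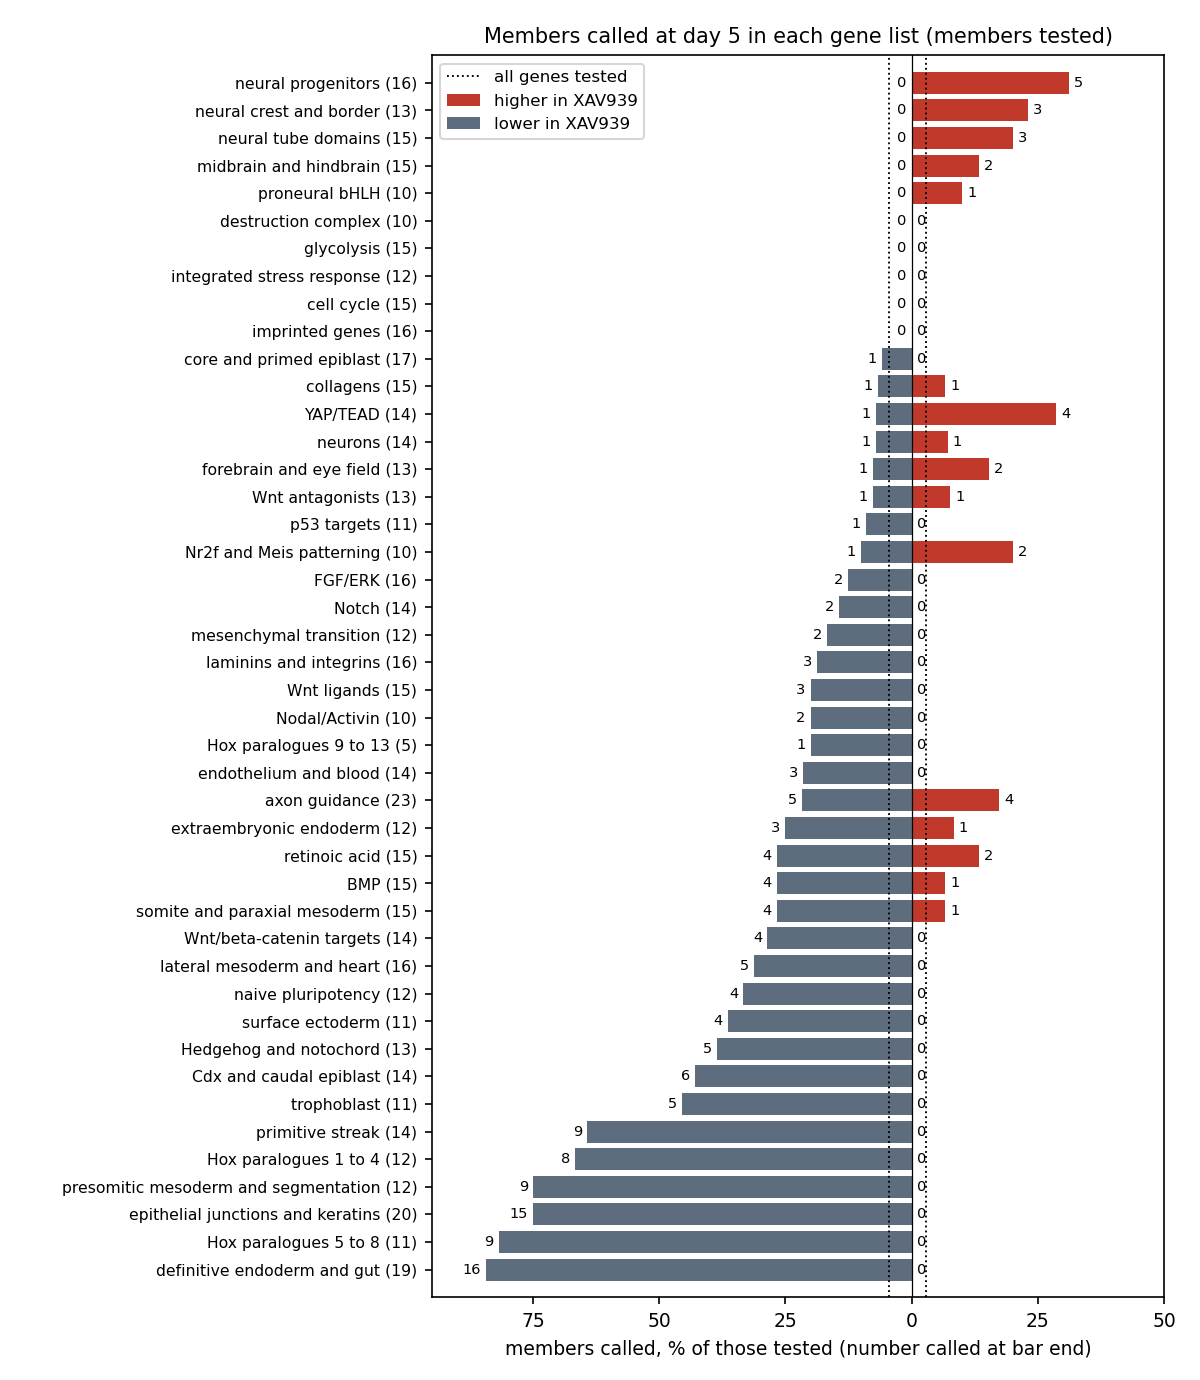
Share of tested members called higher (right of 0) and lower (left of 0) in XAV939 aggregates at day 5 for 44 gene lists, with the number called at each bar end and the number tested in brackets; dotted lines mark the shares over all genes tested. The endoderm list has 16 of 19 members lower and the neural progenitor list 5 of 16 higher.

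Wnt pathway genes were measured 48 h after the inhibitor had gone. Of 15 tested ligand genes 3 fell and none rose (median -0.71). Wnt2b had 0.814, 0.635, 1.29 and 0.395 CPM with XAV939, against 10.9, 2.99, 5.06 and 1.61 CPM without, with no overlap (log2 -2.52, SE 0.38, adjusted p 0.000642). Wnt6 averaged 0.967 ± 0.322 CPM with XAV939 and 2.72 ± 0.888 CPM without (log2 -1.49, SE 0.27, adjusted p 0.00198). Wnt5a, a ligand of the β-catenin-independent branch in the tail, had 15, 14.7, 12.9 and 16.2 CPM, against 52.9, 22.2, 27.4 and 16.9 CPM (log2 -0.90, SE 0.23, adjusted p 0.0193). None of the 10 tested genes of the destruction complex and tankyrases was called (median 0.05), where 7.35% of all genes tested were. Ctnnb1, the β-catenin gene, had 1411, 1348, 1293 and 1453 CPM with XAV939 and 1378, 1243, 1265 and 1292 CPM without (log2 0.09, adjusted p 0.389), and Tnks2, a tankyrase and target of the drug, averaged 596 ± 36.5 CPM with XAV939 and 638 ± 25.9 CPM without, with an adjusted p of 0.622. Wnt6 and Wnt5a lost their calls without the pairing (adjusted p 0.0945 to 0.307), and Wnt5a without pairs 1, 2 and 3 (0.129, 0.0546 and 0.0672).

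Of 14 Wnt/β-catenin targets 4 fell and none rose (median -0.25), where 2.93% of all genes tested were higher and 4.41% lower. Sp5, the transcription factor whose promoter is shown above, had 11.2, 10.4, 9.39 and 4.38 CPM with XAV939, against 29.9, 29.5, 22 and 15.8 CPM without, with no overlap (log2 -1.5, SE 0.37, adjusted p 0.0174). Dkk1, a secreted Wnt inhibitor and target, had 13.9, 19.7, 13 and 11.9 CPM, against 36, 40.9, 27 and 24.2 CPM, with no overlap (log2 -1.12, SE 0.19, adjusted p 0.00147). Lef1, a nuclear partner of β-catenin, had 78.3, 48.2, 55.9 and 28.5 CPM with XAV939, against 143, 80.5, 90.8 and 72 CPM without, and XAV939 library 1 lay within the untreated range (log2 -0.91, SE 0.19, adjusted p 0.00587). Lgr5, a receptor for R-spondins, averaged 6.79 ± 1.49 CPM with XAV939 and 11.8 ± 3.59 CPM without (log2 -0.77, SE 0.23, adjusted p 0.0453). Axin2, the feedback gene often used as a readout, had 102, 64.7, 74.6 and 57 CPM with XAV939 and 110.4, 73, 86.1 and 69.7 CPM without and did not pass the test (log2 -0.19, adjusted p 0.572). Tcf7 had 85.8, 54.5, 54.3 and 36.5 CPM with XAV939 and 96.2, 92, 67.7 and 65.7 CPM without and did not pass it either (log2 -0.52, adjusted p 0.0676), though it did with DESeq2 (adjusted p 0.0267). Among 13 secreted and other antagonists Cer1 fell and Sfrp2, a Frizzled-related protein of neural tissue, rose (median -0.14), with 73.5, 69.2, 33.2 and 50.1 CPM with XAV939 and 38.2, 21.9, 29.9 and 23.1 CPM without (log2 0.97, SE 0.20, adjusted p 0.00586). Without the pairing the 4 targets lost their calls (adjusted p 0.178 to 0.313), as did Sfrp2 (0.0642). Sp5 and Lgr5 lost theirs without pair 1 (0.0512 to 0.181) and pair 2 (0.0896 to 0.221), Lgr5 without pair 3 (0.127), Sp5 and Lef1 without pair 4 (0.0544 to 0.0951), and Sfrp2 without pair 2 (0.0762).

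Other signalling lists had some members called lower, where 4.41% of all genes tested were lower and 2.93% higher. With lists this short, 1 or 2 called members are not a result about the list. Of 10 tested Nodal and Activin genes 2 fell and none rose (median -0.67), Lefty2 and Foxh1, a partner of the Smad proteins. Foxh1 had 115, 70.2, 101 and 47.5 CPM with XAV939, against 168, 129, 131 and 101 CPM without (log2 -0.72, SE 0.12, adjusted p 0.00142). Of 15 BMP genes 4 fell and 1 rose (median -0.36). The ligand genes Bmp7, Bmp2 and Bmp4 had log2 fold changes of -0.75 (SE 0.13), -1.17 (SE 0.21) and -1.05 (SE 0.21), with adjusted p of 0.00165, 0.00187 and 0.00417. The BMP inhibitor gene Nog, near 1 CPM or below in every library, fell as well (log2 -2.1, SE 0.51, adjusted p 0.0158). Id2, a target of BMP, rose, with 54.4, 85.6, 54.7 and 81 CPM with XAV939, against 32.3, 22.4, 55.6 and 29.2 CPM without (log2 1.04, SE 0.21, adjusted p 0.0052). Of 13 genes of Hedgehog signalling and the notochord 5 fell and none rose (median -1.03). Among them were the ligand gene Shh, the target Gli1, Nog of the notochord, and Foxj1 of motile cilia. Gli1 averaged 5.39 ± 3.94 CPM with XAV939 and 10.2 ± 4.55 CPM without (log2 -1.03, SE 0.20, adjusted p 0.00384), and Foxj1 6.22 ± 2.88 CPM and 16.2 ± 5.99 CPM (log2 -1.42, SE 0.35, adjusted p 0.0159). Shh stood at 0.367 ± 0.237 CPM with XAV939 and 1.07 ± 0.565 CPM without (log2 -1.55, SE 0.44, adjusted p 0.0439). Of 14 Notch genes 2 fell, Dll3 and the receptor gene Notch1 (41.7 ± 13.4 CPM with XAV939 and 82.7 ± 47.3 CPM without; log2 -0.87, SE 0.15, adjusted p 0.00184), with a median of -0.22.

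Of 16 FGF and ERK genes 2 fell and none rose, with a median of -0.26, where 4.41% of all genes tested were lower. So few members are not a result about the list. They were Fgf4, the epiblast ligand gene, and Spry4, a feedback inhibitor. Fgf4 had 7.07, 8.09, 6.33 and 5.56 CPM with XAV939, against 33.6, 18, 10.1 and 11.4 CPM without (log2 -1.29, SE 0.32, adjusted p 0.0184), and Spry4 averaged 24.1 ± 11.7 CPM with XAV939 and 43.1 ± 14.9 CPM without (log2 -0.92, SE 0.25, adjusted p 0.0265). Among these signalling genes, the calls of Foxh1, Bmp7, Bmp2, Bmp4, Gli1, Shh, Notch1, Fgf4 and Spry4 ended without the pairing (adjusted p 0.0513 to 0.408). Those of Nog, Shh, Fgf4 and Spry4 ended without pair 1 (0.0796 to 0.157), these and that of Id2 without pair 2 (0.0661 to 0.122), that of Shh without pair 3 (0.0975), and those of Shh, Fgf4, Spry4 and Id2 without pair 4 (0.0546 to 0.162). With no low-count filter those of Shh and Fgf4 ended (0.0531 to 0.0735).

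Heart, vessel and blood genes fell in part, where 4.41% of all genes tested were lower. Of 16 tested lateral mesoderm and heart genes 5 fell and none rose (median -1.16). Gata4, a zinc-finger factor of heart and endoderm, had 1.23, 2.43, 1.66 and 0.461 CPM with XAV939, against 13.1, 8.5, 8.11 and 2.45 CPM without, with no overlap (log2 -2.46, SE 0.42, adjusted p 0.00165). Gata6, its relative, had 3.45, 4.92, 4.41 and 1.61 CPM, against 14.4, 17.2, 11.2 and 5.89 CPM (log2 -1.77, SE 0.41, adjusted p 0.0124). Myl7, an atrial myosin light chain, averaged 0.215 ± 0.121 CPM with XAV939 and 1.39 ± 1.37 CPM without (log2 -2.53, SE 0.45, adjusted p 0.00195), and the T-box gene Tbx3 0.293 ± 0.172 CPM and 0.997 ± 0.443 CPM (log2 -1.74, SE 0.31, adjusted p 0.00198). The fifth was Isl1. Of 14 endothelium and blood genes 3 fell and none rose (median -0.75). Flt1, a VEGF receptor, had 15.9, 22.1, 14.5 and 7.11 CPM with XAV939, against 64.1, 73.5, 44.5 and 17.5 CPM without (log2 -1.67, SE 0.22, adjusted p 0.000279). Lmo2 averaged 7.63 ± 1.36 CPM with XAV939 and 17.6 ± 6.92 CPM without (log2 -1.15, SE 0.25, adjusted p 0.00713), and Gata1, of the red blood lineage, 0.0999 ± 0.0659 CPM and 0.574 ± 0.352 CPM (log2 -2.47, SE 0.54, adjusted p 0.00824), with the globin genes Hbb-bh1 and Hba-x at 0 in all 8 libraries. The calls of Gata6 and Lmo2 ended without pair 1 (adjusted p 0.0525 to 0.0548) and without the pairing (0.101 to 0.107), and that of Gata6 without pair 2 (0.0732) and pair 4 (0.0539).

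Markers of extraembryonic tissues were measured beside the endoderm and epithelial genes, where 2.93% of all genes tested were higher and 4.41% lower. The 15 extraembryonic endoderm genes summed to 150 to 207 CPM in XAV939 libraries and 147 to 221 CPM in untreated ones. Of 12 tested 3 fell, Gata4, Gata6 and the parathyroid hormone receptor gene Pth1r (log2 -1.21, SE 0.30, adjusted p 0.0158), and 1 rose, the plasminogen activator gene Plat (log2 1.0, SE 0.20, adjusted p 0.00474), with a median of -0.76. The 13 trophoblast genes summed to 45.0 to 121 CPM with XAV939 and 153 to 245 CPM without. Of 11 tested 5 fell and none rose (median -1.27), namely the keratin gene Krt7 (log2 -1.3, SE 0.27, adjusted p 0.00584), the bHLH gene Ascl2 (log2 -1.58, SE 0.34, adjusted p 0.0065), Tead4, Cdx2 and Eomes, while the defining placental genes Tpbpa and Prl3d1 were at 0 in all 8 libraries. The sums of the trophoblast list did not overlap between the arms, whereas those of the extraembryonic endoderm list did. Most of the trophoblast sum came from 2 members described above with the streak and caudal genes. Eomes averaged 52.7 CPM with XAV939 and 112 CPM without, and Cdx2 21.6 CPM and 61.5 CPM. The calls of Pth1r ended without pairs 1 and 2 (adjusted p 0.119 and 0.0762) and without the pairing (0.0722). The part of such cells in the endoderm and epithelial falls was not tested. Gata4, Gata6, Tead4, Cdx2 and Eomes are also expressed in the embryo proper.

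Pluripotency genes were called in both lists, where 4.41% of all genes tested were lower. Among 17 tested members of the list of core and primed pluripotency genes 1 fell and none rose (median -0.37), near the share over all genes. The faller was Sall4, a zinc-finger factor of epiblast, with 165, 92.3, 117 and 67.6 CPM with XAV939, against 209, 149, 169 and 119.5 CPM without (log2 -0.60, SE 0.15, adjusted p 0.0162). Pou5f1 had 356, 182, 346 and 98 CPM with XAV939 and 262, 560.4, 351 and 424 CPM without and did not pass the test (log2 -0.82, SE 0.45, adjusted p 0.316), its pairs pointing in different directions. Lin28a, an RNA-binding protein of early embryos, averaged 1098 ± 111 CPM with XAV939 and 1066 ± 139 CPM without, with an adjusted p of 0.815. Of 12 naive pluripotency genes 4 fell and none rose (median -0.96): Tbx3, Fgf4, Klf5 (7.98 ± 1.79 CPM with XAV939 and 16.8 ± 1.62 CPM without; log2 -1.1, SE 0.20, adjusted p 0.0021) and Prdm14 (1.44 ± 0.302 CPM and 2.94 ± 0.366 CPM; log2 -1.04, SE 0.24, adjusted p 0.0116). The calls of Sall4 and Prdm14 ended without pair 2 (adjusted p 0.0622 to 0.103) and pair 4 (0.0729 to 0.108), and these and that of Klf5 without the pairing (0.078 to 0.407). No member was called among 15 glycolysis, 12 integrated stress response and 15 cell cycle genes, where 7.35% of all genes tested were called. Lists this short can hold none at that share. Their medians were 0.03, -0.13 and 0.06.

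In the same fit, day 5 was the earliest of the 5 days with called genes. No gene was called at day 3 or day 4 with edgeR, where 1313 (7.78%) and 1660 (9.84%) genes had an unadjusted p under 0.05 and DESeq2 called 38 and 67. At day 6, 732 (4.34%) were higher and 995 (5.9%) lower with XAV939, and at day 7, 159 (0.942%) and 222 (1.32%), or 10.2% and 2.26% of genes in either direction. Untreated library 3 of day 6 stood apart. Ribosomal protein genes took 11.1% of its counts and mitochondrial genes 0.915%, the highest and lowest shares of the 40 libraries. It was kept in all day 6 values, and its part in them was not tested. Of the 495 genes called higher at day 5, 244 were called higher at day 6, which is 49.3% of the day 5 set and 33.3% of the day 6 set. Of the 745 lower genes 323 were called lower at day 6, 43.4% of the day 5 set and 32.5% of the day 6 set. The other direction at day 6 was called for 1 of the 495 and 0 of the 745, and each day has its own libraries in both arms. The effect itself differed between days 5 and 4 for 82 genes (0.486%), being higher at day 5 for 11 (0.0652%) and lower for 71 (0.421%). Between days 5 and 6 it differed for 11 genes (0.0652%), 6 higher (0.0355%) and 5 lower (0.0296%) at day 5. From day 3 it differed for 120 genes (0.711%), 41 higher (0.243%) and 79 lower (0.468%), and from day 7 for 20 (0.118%), 5 higher (0.0296%) and 15 lower (0.0889%). Without the pairing 0 genes passed the tests against days 4 and 6, where 844 and 685 genes had an unadjusted p under 0.05 and DESeq2 with the pairing called 288 and 123.

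Lists with many members lower at day 5 had different medians at day 4, when edgeR called no gene. The median log2 fold change at day 4 was -0.205 for the endoderm list, -0.184 for the epithelial list and -0.317 for the presomitic list, but -1.99 for the primitive streak list and -1.11 for the Cdx and caudal epiblast list. T averaged 5.15 ± 2.65 CPM with XAV939 and 151 ± 266 CPM without at day 4, Mixl1 0.782 ± 0.283 CPM and 44.1 ± 82.2 CPM, and Cdx2 0.15 ± 0.0629 CPM and 3.1 ± 5.1 CPM in the same order. None of these 3 genes passed the test at day 4 (adjusted p 0.24 for each), and the untreated SD exceeded the untreated mean in all 3. Cldn6 is 1 gene whose arms were close at day 4. At day 3 it averaged 236 ± 18.6 CPM with XAV939 and 214 ± 15.8 CPM without, and at day 4 89.1 ± 33.6 CPM and 88.8 ± 27.7 CPM. At day 5 it averaged 12.8 ± 4.92 CPM and 46.2 ± 23.3 CPM, at day 6 36.4 ± 9.73 CPM and 108 ± 44.9 CPM, and at day 7 51.6 ± 18.3 CPM and 99 ± 29.2 CPM. The gene declined to day 5 in both arms. Its day 5 effect was lower than its day 4 effect by a log2 difference of -1.79 (SE 0.20, adjusted p 0.000325). Cyp26a1 averaged 11.8 ± 9.22 CPM with XAV939 and 8.0 ± 4.77 CPM without at day 4, and 17.7 ± 6.59 CPM and 86.1 ± 43.7 CPM at day 6, where its effect was -2.19 on the log2 scale (adjusted p 2.23e-06). Hoxb9 reached 117 ± 54 CPM with XAV939 and 173 ± 76.6 CPM without at day 6, where its effect was -0.58 on the log2 scale (adjusted p 0.36), and the difference from day 5 did not pass the test (adjusted p 0.416).

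Among the rises, Thbs1 averaged 9.97 ± 2.7 CPM with XAV939 and 9.97 ± 1.16 CPM without at day 4, and 39.3 ± 16.8 CPM and 13.7 ± 5.35 CPM at day 6. Egfr, the epidermal growth factor receptor, had 13.6, 15.9, 13.4 and 19.5 CPM with XAV939, against 3.82, 4.28, 7.66 and 6.34 CPM without at day 5 (log2 1.54, SE 0.19, adjusted p 0.000198), with no overlap between the arms. It averaged 5.37 ± 0.312 CPM with XAV939 and 6.56 ± 1.04 CPM without at day 4, and 10.5 ± 3.71 CPM and 4.17 ± 2.33 CPM at day 6. Vgll3 averaged 2.51 ± 0.587 CPM with XAV939 and 2.8 ± 0.426 CPM without at day 4, 11.7 ± 3.55 CPM and 2.14 ± 1.92 CPM at day 6, and 1.43 ± 0.868 CPM and 0.982 ± 0.112 CPM at day 7. Its XAV939 mean at day 5 was 38.4 ± 22.4 CPM, above those at days 4, 6 and 7, but the difference of its effect between days 5 and 4 did not pass the test (3.04, SE 0.70, adjusted p 0.0561). A pair of neural genes differed more at day 6. Dcx, a microtubule protein of young neurons, had 5.5, 5.33, 7.47 and 7.01 CPM with XAV939 and 2.84, 7.25, 5.48 and 10.7 CPM without at day 5 (log2 0.06, adjusted p 0.94), and averaged 12.1 ± 14.9 CPM and 1.15 ± 0.583 CPM at day 6. Nes, the intermediate filament nestin of neural progenitors, averaged 160.4 ± 23.8 CPM with XAV939 and 141 ± 10.7 CPM without at day 5, and 273 ± 78 CPM and 119.9 ± 36.7 CPM at day 6. Both effects were smaller at day 5 than at day 6 (adjusted p 0.039 and 0.0206), with the unusual day 6 untreated library 3 included.

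**Figure D4:**
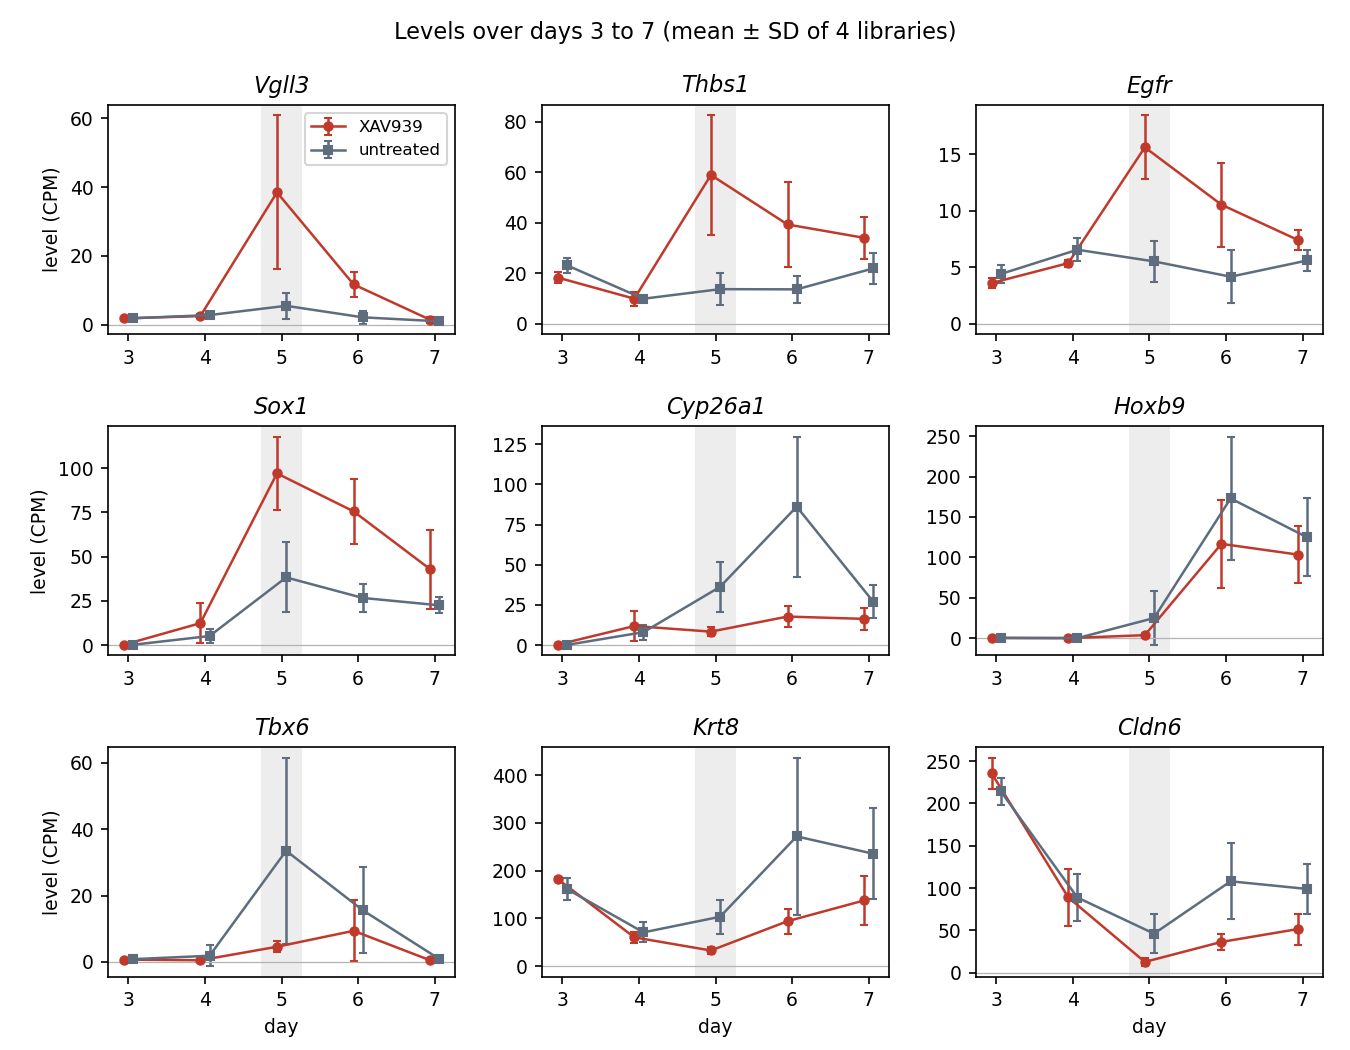
Mean level in CPM, with SD as error bars (n = 4 libraries), of 9 genes at days 3 to 7 in XAV939 (red circles) and untreated aggregates (grey squares); day 5 is shaded. Cldn6 and Cyp26a1 stay lower with XAV939 from day 5, whereas Hoxb9 averages 117 CPM with XAV939 and 173 CPM without at day 6, with wide error bars.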

How the data were processed

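RNA was measured by sequencing in 40 libraries of mouse CGR8 aggregates, of which the 8 of day 5 are described. The authors deposited 1 table of whole-number counts per gene. Base calls were made with bcl2fastq 2.20.0 and the genome build was mm10, per the submitters' processing notes, while the sources used here give no aligner, counting program, strand setting of the counting or gene annotation. The library kit kept strand, per the labels' protocols. The day 5 libraries held 31159603 to 41018704 counts, and no 2 libraries of a group agreed within counting noise.

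All 40 libraries were fitted together with edgeR 4.0.16 in R 4.3.3 (limma 3.58.1), by quasi-likelihood with robust dispersion. TMM scaling was used, and filterByExpr (minimum count 10) left 16878 of 26906 genes. The model had 20 pair terms and 1 XAV939 effect a day, with 15 residual degrees of freedom, and the adjusted p is Benjamini-Hochberg over all genes tested. The standard error is the log2 fold change over the root of F. Levels are CPM of the TMM-scaled total. The script was tested on simulated data.

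Libraries of 1 day share replicate numbers across arms in their titles. The comparison was defined with these numbers as pairs within each day. At day 5 the deviations of same-numbered libraries from their arm means correlated at 0.155 to 0.377 and those of other combinations at no more than 0.0942. All 4 XAV939 libraries correlated best with their own number at days 4 to 7, and 3 of 4 at day 3. There XAV939 library 4 correlated at 0.145 with its own number and at 0.302 with untreated library 3. Alternatives were no pairing, the day 5 libraries alone with and without it, relative log expression scaling, DESeq2 1.42.0, no low-count filter or one of 5 CPM in 4 libraries, a fold minimum, and leaving out each pair or library.

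Members and gene lists were chosen with earlier results of these data known. Genes are named by 4 rules. They are the 12 largest rises and 12 largest falls among called genes that averaged at least 5 CPM in the higher arm and moved alike in 4 pairs, up to 4 called members of each list with the smallest adjusted p (or its 2 highest members), a set panel of markers, and the 5 largest differences between days each way. Pou3f4, Ajuba, Shh, Aldh1a1, Rara, Eomes, Sema3c, Epha3, Efna5, Unc5b and Robo3 complete short counts of list members and were chosen once their values had been seen. Some genes that the rules name are not reported here. Gene coordinates and exon overlaps came from GENCODE M21, which held 26881 of the 26906 gene IDs, and promoters from RefSeq (GRCm38.p6), which held 89 of the 130 genes described. Reads of genes that overlap on opposite strands cannot be told apart here, which touches Nr2f2, Thbs1, Prss23, Ildr2, Sox21, Emx2, Otx2, Six3, Ccn2, Hes7, Hoxa7, Hoxaas3, Hoxd4, Sox17, Krt8, Esrp2, Gata6, Lef1, Axin2, Wnt5a, Ctnnb1, Sfrp2, Bmp4, Notch1, Gli1, Pou5f1, Sall4, Fn1, Sorbs2, Pth1r, Shh and Eomes as well as Nr2f1 and A830082K12Rik. No cut on library quality was made. The p-values of the main fit cover only the spread of within-pair differences, pooled over the libraries of all days.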

Additional observations from a re-analysis of the deposited data

Results flagged for a closer look

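Among the 130 genes described, a single library stood far from the other 3 of its arm in 26 of 260 groups examined. Dixon's test at the 95% level was used, on CPM without a logarithm. Its nominal share is about 1 in 20. The genes were not chosen at random and were read in the same 8 libraries, where many move together. The 26 therefore cannot be judged against that share. For 12 genes it was untreated library 1, on the high side. It held 216 CPM of Aldh1a2, 75 CPM of Hoxb9, 31.2 CPM of Hoxb8, 25.9 CPM of Hoxaas3, 6.63 CPM of Hoxb4, 6.33 CPM of Hoxc4, 2.36 CPM of Hoxb6 and 2.72 CPM of Hoxc6. It also held 18.8 CPM of Meox1, 6.96 CPM of Foxc2, 119 CPM of Cdx2 and 30.2 CPM of Sox2, the last only slightly above the others.

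In the other cases XAV939 library 4 stood low for Dsp at 32.5 CPM, Esrp2 at 0.0329 CPM and Klf5 at 5.3 CPM, and high for Pdzph1 at 16 CPM and Aldh1a1 at 1.42 CPM. XAV939 library 3 was low for Pax7 at 7.79 CPM and Hoxb9 at 0.687 CPM, and XAV939 library 2 high for Emx2 at 4.06 CPM, Foxc1 at 3.09 CPM and the glutamate receptor gene Grin2c at 1.88 CPM. Untreated library 2 was high for Cdh1 at 419 CPM, untreated library 3 high for Egr2 at 8.34 CPM, and untreated library 4 low for Dusp4 at 68.7 CPM and for the matrix gene Npnt at 4.21 CPM.

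The XAV939 effect at day 5 differed from that at day 4, at an adjusted p below 0.05 in edgeR, for 21 of the genes described. The log2 difference of effects was 2.15 for Thbs1, 1.81 for Egfr, 1.23 for the adaptor gene Sorbs2, 0.95 for the neuronal gene Nrep, 0.93 for Npnt and 0.90 for the ephrin gene Efnb2. Towards lower values at day 5 it was -1.79 for Cldn6, -1.41 for Krt8, -1.89 for Esrp2, -2.56 for Cyp26a1, -1.88 for Snai1 and -1.04 for Dusp4. Among signalling genes it was -1.32 for Dkk1, -0.81 for Foxh1, -1.13 for Notch1 and -1.39 for Gli1. It was -2.8 for Myl7, -2.21 for Grin2c, -2.13 for Pth1r, -1.93 for the pentraxin gene Nptx2 and -1.41 for the axon guidance gene Slit1.

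From day 6 the day 5 effect differed for 6 of the genes described, with the unusual day 6 untreated library 3 included. The log2 difference was -2.81 for Dcx, -1.49 for the actin nucleator gene Cobl and -1.0 for Nes. It was 2.12 for Nxf7, 1.66 for the chloride channel gene Clic6 and 0.86 for the membrane receptor gene Sirpa. Without the pairing none of these differences between days passed the test.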

How the results depend on the processing

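With each choice changed in turn, no called gene among those described changed its direction and stayed called. Of 114 called genes described, 114 kept their call with relative log expression scaling, 109 with DESeq2, 100 with no low-count filter, 59 without the replicate block, and 77, 72, 104 and 75 without pair 1, 2, 3 and 4. With a filter of 5 CPM in 4 libraries 103 of the 104 still tested kept it, and in the day 5 libraries alone with the block 42 of 110. The day 5 counts of 495 higher and 745 lower genes became 461 and 808 with relative log expression scaling, 587 and 972 with DESeq2, 345 and 649 with no filter, 333 and 509 with the 5 CPM filter, and 209 and 421 with a fold change of at least 2 as well. They became 154 and 241 without the replicate block, 91 and 322 in the day 5 libraries with the block, and 0 and 0 there without it. Without 1 pair they ranged over 93 to 617 higher and 324 to 730 lower genes, and without the block and 1 library over 26 to 177 and 44 to 353. The number of genes whose effect differed from day 4 was 82, and it was 0 without the block, 288 with DESeq2 and 16 to 134 without 1 pair. From day 6 it was 11, and 0, 123 and 4 to 17 in the same order. From day 3 it was 120, and 0, 411 and 19 to 303, with 67 under the 5 CPM filter. From day 7 it was 20, and 2, 212 and 1 to 88, with 58 under relative log expression scaling and 45 with no filter. The median log2 fold change of all genes was 0.01, and no scaling moved it by more than 0.1. The cause of these changes was not tested, except that fits of 8 libraries have fewer samples and filters change the genes tested. Genes far below 1 CPM, such as Hoxb6, Hoxa7 and Hoxc6 with XAV939, held few counts in each library. The part of depth in their calls was not tested.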

Other observations

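Axon guidance genes, which steer growth cones and migrating cells, went both ways: of 23 tested 4 were higher and 5 lower with XAV939 (median log2 fold change 0.15). Over all genes tested 2.93% were higher and 4.41% lower. The ephrin ligand gene Efnb2 had 183, 167, 137 and 127 CPM with XAV939, against 96.2, 75.8, 126 and 81.7 CPM without (log2 0.70, SE 0.14, adjusted p 0.00392). The arms did not overlap. The semaphorin gene Sema3c had 22.8, 27.2, 14.8 and 44.6 CPM, against 8.6, 6.21, 11.8 and 13.8 CPM (log2 1.4, SE 0.30, adjusted p 0.00736), and the ephrin receptor gene Epha3 and ligand gene Efna5 rose too (Epha3 log2 1.2, SE 0.33, adjusted p 0.0308; Efna5 log2 0.71, SE 0.20, adjusted p 0.0352). Among the falls, the midline repellent gene Slit1 had 9.57, 8.53, 5.9 and 3.72 CPM with XAV939, against 26.8, 18, 19.1 and 5.82 CPM without, and XAV939 libraries 1 to 3 overlapped only untreated library 4 (log2 -1.25, SE 0.15, adjusted p 0.000159). Sema6a averaged 40.8 ± 12.8 CPM with XAV939 and 85.6 ± 21.3 CPM without (log2 -1.1, SE 0.23, adjusted p 0.00513), Slit3 40.1 ± 22.7 CPM and 67.8 ± 20.5 CPM (log2 -0.92, SE 0.20, adjusted p 0.00726), and the netrin receptor gene Unc5b 31 ± 13.7 CPM and 54.6 ± 11.3 CPM (log2 -0.92, SE 0.20, adjusted p 0.00751). Robo3, a receptor of the Slit pathway, had 0, 0.387, 0.658 and 0.197 CPM, against 2.99, 1.51, 2.09 and 0.474 CPM (adjusted p 0.0414). The calls of Efnb2, Sema3c, Epha3, Efna5, Slit3, Unc5b and Robo3 ended without pair 2 (adjusted p 0.0548 to 0.257), and all of these but Efnb2 without pair 4 (0.0569 to 0.241). Without the pairing those of Efnb2, Epha3, Efna5, Slit1, Slit3, Unc5b and Robo3 ended (0.0596 to 0.296), and without pair 1 those of Epha3, Efna5 and Robo3 (0.0579 to 0.168).

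Matrix and p53 target genes were called in part, where 2.93% of all genes tested were higher and 4.41% lower. Of 16 laminin and integrin genes 3 were lower and none higher (median -0.29). The laminin genes Lamb1 and Lamb3 had log2 fold changes of -0.58 (SE 0.092, adjusted p 0.001) and -1.3 (SE 0.39, adjusted p 0.0471), and the fibronectin receptor gene Itga5 of -0.45 (SE 0.11, adjusted p 0.0129). Of 15 collagen genes 1 was higher, Col11a1 (log2 0.77, SE 0.23, adjusted p 0.0443), and 1 lower, Col13a1 (log2 -1.71, SE 0.31, adjusted p 0.00227), and 12 of the 15 had a fold change above 0 (median 0.23). Of 11 p53 target genes 1 was lower, Phlda3 (log2 -0.59, SE 0.14, adjusted p 0.0104), with a median of -0.16.

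None of 16 imprinted genes was called, where 7.35% of all genes tested were. Peg3, expressed from the paternal allele, had 911, 1071, 1129 and 1132 CPM with XAV939 and 1799, 1512, 1592 and 1823 CPM without. Its arms did not overlap, but its adjusted p was 0.0505 (log2 -0.66). Mest had 1232, 1615, 1008 and 1722 CPM with XAV939 and 1080.1, 655, 1017 and 926 CPM without, where XAV939 libraries 1, 2 and 4 stood above every untreated library (log2 0.59, adjusted p 0.0935).

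Against day 3, the day 5 effect was higher for the transcriptional cofactor gene Eya4 by 2.03 on the log2 scale, and differed by -2.62 for the keratin gene Krt80 and -1.97 for the small GTPase gene Arl4d (adjusted p 0.0192, 0.0349 and 0.0349). At day 5 Eya4 averaged 10.1 ± 6.49 CPM with XAV939 and 3.04 ± 0.989 CPM without (log2 1.59, SE 0.26, adjusted p 0.00135). Against day 7, the day 5 effect on Aldh1a2 differed by -3.93 (adjusted p 0.0349) and that on Dll3 by -2.5 (adjusted p 0.0332).

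The median exonic length was 4960 bases for the genes called higher, 4014 bases for those called lower and 4106 bases for the rest. Over 10540 genes the median SD of log2 CPM was 0.224 with XAV939 and 0.176 without, and it was larger in the untreated arm for 32.8% of genes. For the genes called higher among them it was 0.254 with XAV939 and 0.271 without, and for those called lower 0.411 and 0.395, with the untreated arm the larger for 50.2% and 51% of genes.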
